A study of Mus musculus with 2 samples.

Results

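The regions described here are 3648 narrow promoter peaks of genes listed without a Gene Ontology (GO) term. They come from 83549 peaks of open chromatin in the mouse heart. A peak was included when the authors' table annotated it as a promoter within 1 kb of a transcript start, left the GO field of the nearest gene blank, and gave the peak a width under 1200 bp. The 3648 peaks belong to 3206 genes; 2817 genes have 1 such peak, 347 have 2 and 42 have 3 or more. The choice among listed peaks used annotation and width and not the counts of either genotype, although a wider peak usually holds more reads. A peak is listed because the authors called it in at least 1 library, which does follow from the reads. Of the members, 619 were called in Wtap-CKO alone and 758 in Wtapflox/flox alone. A further 34 promoter peaks of genes without terms were wider and were left out, and 2592 narrow promoter peaks of genes whose terms are left out of the table used here entered neither these regions nor the promoter peaks they are compared with.

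Accessibility was measured by ATAC-seq: a transposase, Tn5, inserts adapters where DNA is exposed, so reads pile up in open chromatin. The mice were 4 days old. The hearts of 7 Wtapflox/flox mice were pooled into 1 library, called the control below, and those of 6 Wtap-CKO mice, in which Wtap is knocked out in cardiomyocytes alone, into another, called the knockout. Wtap encodes a subunit of the nuclear complex that methylates adenosines in RNA; fibroblasts, vessel and blood cells of the knockout heart keep the gene. The Cre driver and the deleted part of Wtap are not given in these sources. The comparison asks how chromatin accessibility in the heart differs when cardiomyocytes lack Wtap. With 1 library per genotype there is no replicate and no test, every difference compares these 2 libraries, and intervals cover counting error only. The tissue is whole heart, so fewer cells of a type and less open chromatin per cell cannot be told apart.

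Genes without GO terms are mostly noncoding RNA genes, pseudogenes and loci annotated recently. A blank GO field does not show that no function is known, and the kinds of gene among the members were not checked. Long noncoding RNAs are transcribed by RNA polymerase II from promoters that resemble those of coding genes but are often weaker, and many lie on the opposite strand of a coding gene, inside one, or at an enhancer. A peak near such a start can therefore mark the promoter of the noncoding gene, the shared promoter of a neighbour, or a distal element that lies beside an annotated transcript. The table names these genes by Ensembl ID alone and the reference gene table shares 0 of the IDs. Members are therefore given by position, gene length and the GO terms of the nearest listed gene with terms. For the same reason the labelled tissue was not checked against marker genes.

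Across both libraries these regions looked like small open sites. Their median width was 352 bp, against 536 bp for the 15968 narrow promoter peaks of genes with GO terms and 312 bp for the 60734 peaks outside 1 kb of a start. A median member held 71 reads in the knockout library and 69 in the control library, whereas a median promoter peak of a gene with terms held 154 and 160 and a median peak outside promoters 57 and 53. Counts of single members ran from 4 to 1690 reads in the knockout and from 4 to 1508 in the control. The libraries held 9816384 and 9835753 reads in all peaks, and counts were scaled by these totals to counts per 1000000 reads (CPM). In the authors' deposited table the median fold enrichment of a member over an even spread of reads was 8.25 in the knockout and 8.99 in the control, against 11.7 and 13.9 for promoter peaks of genes with terms.

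A smaller share of members than of promoter peaks of genes with terms overlapped an annotated start. Of the 3648 peaks, 1420 (38.9%) overlapped the annotated start, 1077 (29.5%) lay upstream and 1151 (31.6%) downstream, whereas 72.5% of narrow promoter peaks of genes with terms overlapped the start. The members off the start lay a median of 449 bp from it. Their genes were short: the median annotated length was 2648 bp, from 39 to 476399 bp, against 19409 bp at the promoter peaks of genes with terms. Genes under 150 bp, the size range of small structural and regulatory RNAs, accounted for 395 peaks (10.8%), and genes of 10000 bp and over for 881 (24.2%).

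Most members stood away from the listed starts of genes with terms. Among starts listed in the table, the nearest start of a gene with GO terms was a median of 31917 bp from the peak. It was over 10000 bp away for 2779 members (76.2%). Genes without terms and genes whose terms are left out were not searched, so another annotated start can lie nearer. A gene with terms is listed only where it is the nearest gene of some peak. One that shares its promoter peak with a member can therefore be missing, and the distances and shares here hold for listed genes alone. The start of the member's gene lay outside every listed gene with terms for 2675 peaks (73.3%) and inside one for 758 (20.8%). It lay within 1000 bp of a start of a gene with terms on the opposite strand for 187 (5.13%), the arrangement of divergent and antisense promoters, and on the same strand for 26 (0.713%). The other 2 peaks lie on an unplaced scaffold with no listed gene with terms.

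As a whole, the members held nearly the same share of the reads in peaks in both genotypes. They took 408716 reads in the knockout (4.16% of reads in peaks) and 410691 in the control (4.18%). The log2 ratio of these shares, knockout over control, was -0.0041 (95% counting interval -0.010 to 0.0021). By the authors' RPM, which scales to library totals larger than the reads in peaks, the same reads gave -0.22. Reads in peaks made up 14.5% of the knockout total and 16.8% of the control total, as worked out from the RPM values. That scaling moved the median log2 ratio of all 83549 peaks by -0.22, so a direction for the whole set depends on it.

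Single members scattered widely around that average, and few passed 2-fold. Ratios were taken after adding 0.5 CPM to each value, and a member counted as higher or lower in the knockout at a 2-fold difference when its mean signal was at or above 3.92 CPM, about 38.5 reads in each library. That floor is the 25th percentile of all peaks, and 2823 members (77.4%) passed it. Among them 89 (3.15%) were at least 2-fold higher in the knockout, against 3.5% of all 62662 peaks over the floor. At least 2-fold lower were 47 (1.66%), against 1.45% of all peaks. Both shares are near those of all peaks, so these counts are not a result about the members. The same held for counting intervals: the interval of a ratio lay above 0 for 778 members (21.3%) and 21.2% of all peaks, and below 0 for 661 members (18.1%) and 15023 of the 83549 peaks. The balance of the calls depended on scaling, since the log2 ratios in the authors' deposited table put 59 members higher and 120 lower, so that 33.0% of calls were higher, against 65.4% here.

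**Figure D1:**
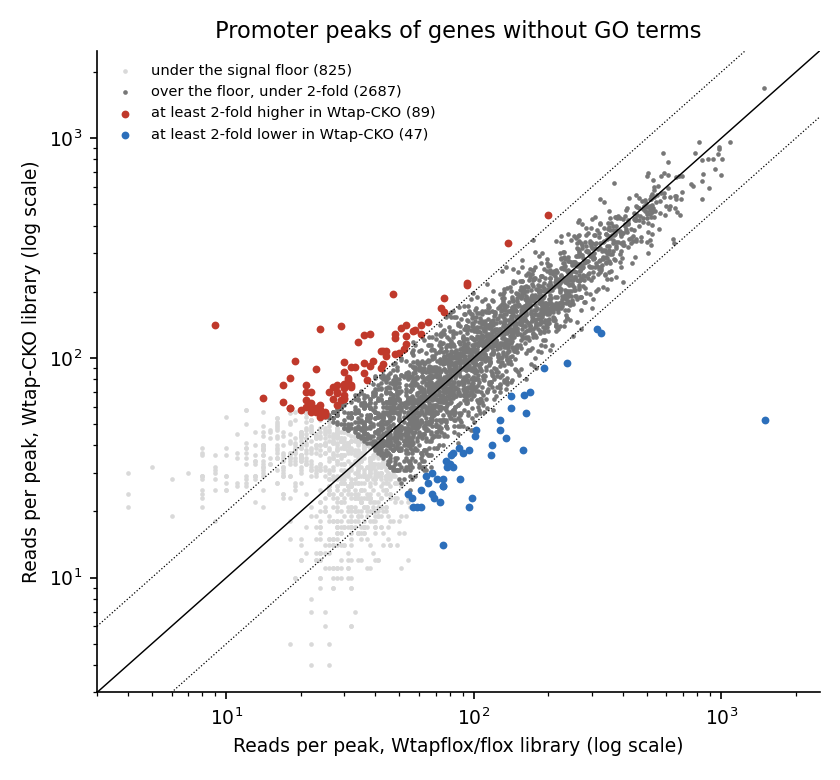
Reads per peak in the control library (horizontal, log scale) and the knockout library (vertical, log scale) for the 3648 promoter peaks of genes without GO terms; the solid line marks equal counts and dotted lines a 2-fold difference. Most points lie between the dotted lines, 89 red points are at least 2-fold higher and 47 blue points at least 2-fold lower, and the single point far below the line is the chromosome 1 peak with 52 and 1508 reads.

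Set beside other classes, the members' ratios lay between those of promoters of annotated genes and those of distal sites. Their median log2 ratio was 0.01 (25th to 75th percentile -0.31 to 0.38), that of narrow promoter peaks of genes with terms -0.06 (from -0.28 to 0.16) and that of peaks outside 1 kb of a start 0.05 (from -0.33 to 0.47). The difference of 0.08 between the members and the promoter peaks of genes with terms has no test, because peaks of 1 library are not replicates. Over all peaks the median log2 ratio was 0.0027, near that of the members. Among promoter peaks of genes with terms over the floor, 1.15% were at least 2-fold higher and 0.765% lower. Outside promoters the shares were 4.53% and 1.75%, and over all peaks 3.5% and 1.45%. Peaks called by the authors in both libraries made up 62.3% of members, near the 61.2% of all peaks. The shares were 80.5% of promoter peaks of genes with terms and 55.0% of peaks outside promoters.

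**Figure D2:**
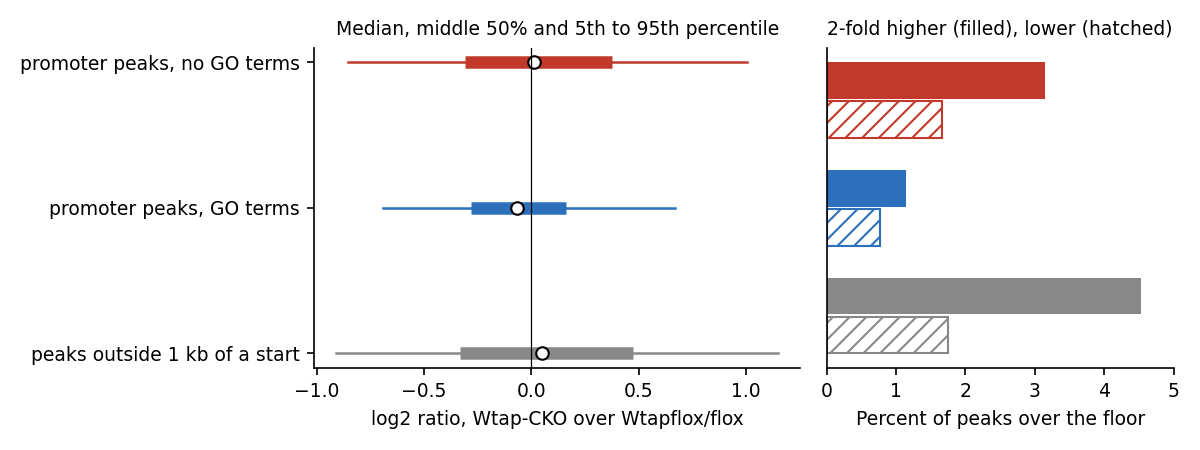
Left, log2 ratio of knockout over control in 3 classes of peaks, with the median (circle), the 25th to 75th percentile (thick bar) and the 5th to 95th percentile (line); right, the percent of peaks over the signal floor that were at least 2-fold higher (filled) or lower (hatched) in the knockout. The members have a median of 0.01 and 3.15% higher peaks, between the 1.15% of promoter peaks of genes with terms and the 4.53% of peaks outside 1 kb of a start. All peaks over the floor, not drawn, have 3.5% higher, near the share of the members.

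Signal strength differs between these classes and sets how far a ratio can scatter, so the classes were compared within 4 bands of mean CPM that split all peaks at the 25th, 50th and 75th percentile. From the weakest to the strongest band the members' median log2 ratios were 0.0022, 0.07, 0.07 and -0.04. Those of promoter peaks of genes with terms were -0.14, -0.03, -0.04 and -0.07, below the members in each of the 4 bands. The members' medians were 0.14, 0.09, 0.11 and 0.03 above them. Against peaks outside promoters the members differed by -0.04, -0.03, 0.01 and -0.03. The strongest band had 5 of 946 members (0.529%) past 2-fold in each direction. There 0.0996% of the 9036 promoter peaks of genes with terms were higher and 0.177% lower, and outside promoters 1.34% and 0.938% of 8959 peaks. In the weakest band, which is under the floor, a median member held 29 reads in each library and the median counting interval spanned 1.65 log2 units. In the strongest band it spanned 0.57.

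**Figure D3:**
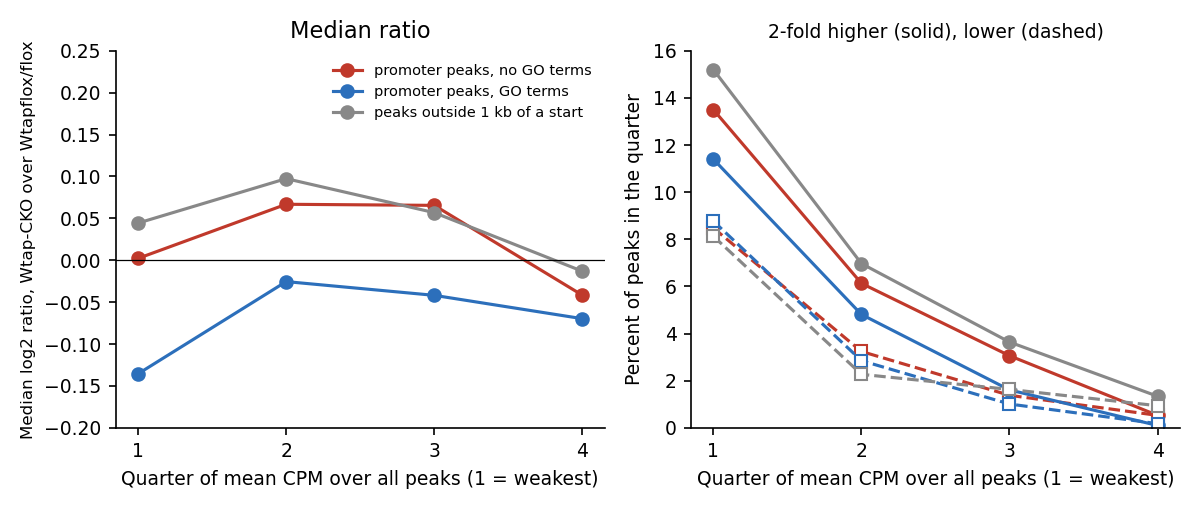
Median log2 ratio of knockout over control (left) and percent of peaks at least 2-fold higher (solid) or lower (dashed) without a floor (right), by band of mean CPM over all 83549 peaks, for the members and 2 comparison classes. The members' medians run from 0.0022 in the weakest band through 0.07 to -0.04 in the strongest, above the promoter peaks of genes with terms in each band, and the share past 2-fold drops with signal in every class.

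Members over the start were stronger than members beside it, and a smaller share of them was past 2-fold. Over the start the median signal was 9.92 CPM, with a median log2 ratio of -0.01, and 1.70% of those over the floor were higher and 1.37% lower. Upstream members (5.96 CPM) had 5.03% higher and 2.58% lower, and downstream members (5.90 CPM) 3.58% and 1.23%. In the promoter peaks of genes with terms the shares over the start were 0.532% higher and 0.541% lower there, against 3.63% and 1.44% upstream. By width, 35 of 644 members under 300 bp that passed the floor were higher (5.43%) and 14 lower. Of the 116 members of 900 bp and over, 1 was higher and 0 lower. Over all peaks that passed the floor 3.5% were higher and 1.45% lower, and other classes were not split by width. Signal moves with width and position in all of these groups, and its part in the shares was not tested.

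Few members lay at divergent or antisense starts of listed genes with terms. Among members over the floor, 164 had a gene starting within 1000 bp of such a start on the opposite strand. Of these, 3 were higher (1.83%, against 3.5% of all peaks) and 0 lower (against 1.45%), numbers too small to set apart from all peaks. The median log2 ratio over all 187 was -0.04. Members starting inside a gene with terms had a median of -0.01, with 3.16% higher and 1.83% lower, and those outside such genes had 0.02, with 3.25% and 1.77%. A promoter peak of a gene with terms lay within 1000 bp of 236 members, which had a median of -0.04, against 0.02 for the other 3412.

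The age of the annotation, as far as the number in the Ensembl ID shows it, went with signal. The 147 members with gene IDs under 50000, which were given first, had a median of 10.5 CPM and a log2 ratio of -0.07, and 0 of the 133 over the floor were higher and 3 lower. The 1624 with IDs from 50000 to under 100000 had 7.58 CPM and a median ratio of 0.0026, with 39 of 1271 higher (3.07%) and 18 lower (1.42%). The 1877 with later IDs had 6.56 CPM and 0.03, with 50 of 1419 higher (3.52%) and 26 lower (1.83%). The shares of these last classes are near the 3.5% and 1.45% of all peaks. By gene length, from under 150 bp through 150 to under 1000 bp and 1000 to under 10000 bp to 10000 bp and over, the higher members were 15 of 285 (5.26%), 14 of 489 (2.86%), 48 of 1353 (3.55%) and 12 of 696 (1.72%). The lower members in the same order were 6 (2.11%), 11 (2.25%), 17 (1.26%) and 13 (1.87%). No test sets these classes apart. By chromosome, the medians of the 19 autosomes ran from -0.08 on chromosome 12 to 0.09 on chromosome 7, with 99 to 262 members each, and 0 members lie on the Y chromosome.

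**Figure D4:**
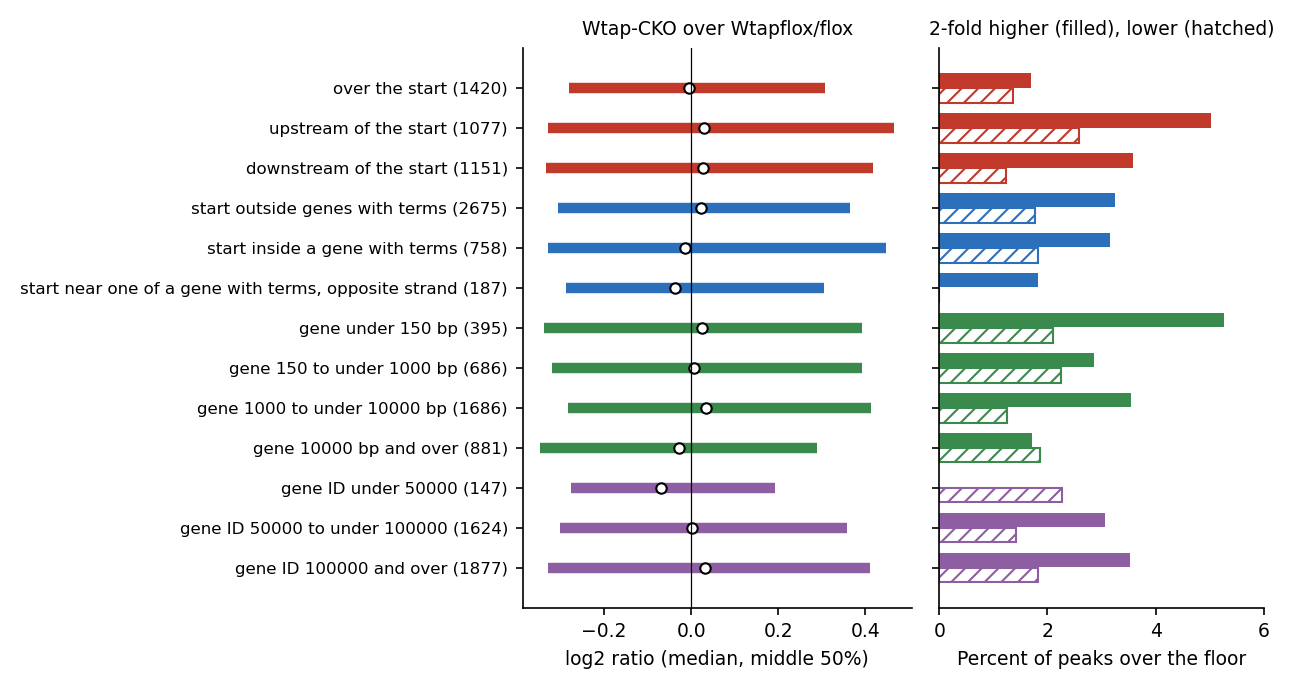
Members grouped by position against the start (red), by the place of their gene among genes with GO terms (blue), by gene length (green) and by number of the gene ID (purple), with the number of peaks in brackets. The left panel gives the median log2 ratio (circle) and the 25th to 75th percentile (bar) and the right panel the percent over the floor that were at least 2-fold higher (filled) or lower (hatched); the 26 peaks near a start on the same strand and the 2 on an unplaced scaffold are not drawn. The medians drawn lie between -0.07 and 0.03. Upstream members have the highest share of higher peaks among the positions, 5.03%, against 3.5% of all peaks.

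The members with the most reads were open in both genotypes. All 10 were called in both libraries, 9 overlapped a start, and their log2 ratios ran from -0.55 to 0.24. The strongest lay on chromosome 14 (55205319 to 55206328, GRCm39), over the start of a 900 bp transcript. It held 1690 reads in the knockout and 1485 in the control, a log2 ratio of 0.19 (interval 0.09 to 0.29). The start nearest to it among genes with terms, 1221 bp away, belongs to a gene annotated to the muscle myosin complex and to the force and rate of heart contraction. The promoter peak of that myosin gene, 700 bp from the member, had 991 reads against 1272, a ratio of -0.36 (interval -0.48 to -0.24). By this scaling the member was slightly higher in the knockout and the myosin promoter slightly lower; in the authors' deposited table the member's log2 ratio was -0.03.

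Among the other strong members, a peak on chromosome 7 (30288168 to 30289170) over a gene of 58 bp held 960 reads in the knockout and 1087 in the control (log2 ratio -0.18). A pair of members on chromosome 8 lay over genes of 111 bp. The peak from 20697649 to 20698448 had 895 reads against 983 (-0.13), and the peak from 19834434 to 19835099 had 956 against 813 (0.24). These strong members include short genes far from any listed start of a gene with terms. The nearest such start was 218656 bp from the former chromosome 8 peak and 643894 bp from the latter. Members on chromosome 5 (151291852 to 151292636, 851 reads against 973), chromosome 13 (111861553 to 111862703, 803 against 930) and chromosome 7 (44635665 to 44636645, 908 against 977, and 127836902 to 127837957, 808 against 882) had ratios between -0.21 and -0.10.

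The last 2 of these 10 belong to 1 gene of 12601 bp on chromosome 7 that had 4 member peaks. Its peak upstream of the start (44121359 to 44122219) held 805 reads in the knockout against 1006 in the control (log2 ratio -0.32). The peak over the start (44122385 to 44123056) held 682 against 1001 (-0.55, interval -0.69 to -0.41). The next peak (44123777 to 44124376) held 335 against 645 (-0.93, interval -1.14 to -0.75), and the last, 44134531 to 44134863, held 114 against 104 (0.13). The 3 adjoining peaks were thus lower in the knockout and the distant one was not. The promoter peak of the nearest gene with terms, a ubiquitin-specific protease gene 3955 bp away, had 483 reads against 655 (-0.43). Of the 7 genes with 4 or more member peaks, singled out after their values were seen, 1 had all of its ratios on the same side. That gene, on chromosome 2 (166346269 to 166364967), had 58 reads against 24, 316 against 301, 362 against 305 and 65 against 27 in its 4 peaks, log2 ratios of 1.12, 0.07, 0.25 and 1.13. The weakest peaks of that gene had the largest ratios. Over all 389 genes with several member peaks, all peaks were above 0 in 128, all below 0 in 83, and on both sides in 178. Most of these genes, 347, had 2 member peaks, and 51.6% of all member ratios were above 0. Whether peaks of 1 gene go together was not tested.

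The members with the largest ratios were chosen among the 1959 at or above the median signal of all peaks (6.66 CPM). The 10 with the largest ratios held 118 to 195 reads in the knockout and 9 to 53 in the control, log2 ratios of 1.33 to 3.39, and 8 of them were called as peaks in the knockout alone. The 10 with the smallest held 36 to 130 reads in the knockout and 96 to 1508 in the control, ratios of -4.73 to -1.23, and 4 were called in the control alone. In both sets 8 of 10 genes started outside listed genes with terms, and 8 of 10 peaks lay over 10000 bp from the nearest listed start of such a gene. Since they were picked for their ratios, these values are a description.

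The largest ratio, on chromosome 4 (148089336 to 148089578, ENSMUSG00000086806), lies 19091 bp from the start of a hormone gene annotated to cGMP synthesis, blood pressure and the growth response of heart muscle to stress. The peak, 865 bp upstream of its start, held 141 reads in the knockout and 9 in the control (log2 ratio 3.39, interval 3.01 to 5.13). The next peak, 130 bp to the left, had 171 against 87 (0.94), and the one 3324 bp to the right 135 against 74 (0.83). Both neighbours were higher too, by less, while the promoter peak of the hormone gene had 454 against 400 (0.18, interval -0.01 to 0.38).

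A member on chromosome 17 (28741529 to 28741834, ENSMUSG00000066170) was also flanked by higher peaks. It overlapped its start and held 137 reads in the knockout and 51 in the control (log2 ratio 1.35, interval 0.95 to 1.92). The peak 80 bp to its right had 260 against 135 (0.92) and the peak 4131 bp to its left 416 against 167 (1.29). The nearest gene with terms, 5031 bp away, is annotated to FK506 binding, peptidyl-prolyl isomerase activity and heat shock protein binding, functions of co-chaperones. Its 3 promoter peaks together held 799 reads against 488 (0.71, interval 0.55 to 0.88). Of the 10 largest ratios, this was the one whose nearest gene with terms had a promoter ratio furthest above 0.

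The other members with large ratios differed in what lay beside them. On chromosome 10 a peak over a start (39433884 to 39434255) held 136 reads against 24 (log2 ratio 2.29, interval 1.87 to 3.20), while the next peaks, 15028 and 29110 bp away, had 38 against 56 and 40 against 60. On chromosome 3 (106496614 to 106497408) a member 38 bp from its start held 195 against 47 (1.95, interval 1.59 to 2.55). The promoter peak of the nearest gene with terms, a lysosomal membrane gene, had 585 against 570 (0.04). The next peak on the right, 94662 bp away, had 90 against 43 (0.99). A peak over a start on chromosome 7 (124506439 to 124506954) with 139 reads against 29 (2.09) had a neighbour 9884 bp away with 49 against 17 (1.30), and it lies 570777 bp from the nearest start of a gene with terms. The members on chromosomes 17 (45020552 to 45021163, 127 against 36), 2 (143985546 to 143986195, 118 against 34) and 5 (73468820 to 73469155, 128 against 38) had ratios of 1.69, 1.66 and 1.63. The remaining ones were on chromosome 16 (14810358 to 14810886, 141 against 53, 1.34) and, over the start of a 107 bp gene, on chromosome 10 (79744971 to 79745330, 128 against 48, 1.33). The latter lies 216 bp from the start of a gene of the mediator complex, which links transcription factors to RNA polymerase II, on the opposite strand. The promoter peak of that gene had 412 against 345 (0.26).

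The lowest ratio belonged to a single peak on chromosome 1 (24651582 to 24652061, ENSMUSG00000067736), over the start of a 294 bp gene. It held 52 reads in the knockout and 1508 in the control (log2 ratio -4.73, interval -5.28 to -4.46; -5.04 in the authors' deposited table). The next peaks, 25709 and 65290 bp away, had 57 against 55 and 215 against 254. No other member came near this difference, the next peaks on either side did not share it, and whether reads map to this locus alone was not checked. Without this peak the log2 ratio of the members' shares of reads was 0.0010, against -0.0041 with it.

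Among members at or above the median signal, the one with the next lowest ratio, on chromosome 4 (120147693 to 120148017, ENSMUSG00000084929), lay among peaks that were also lower. It held 38 reads in the knockout and 158 in the control (log2 ratio -1.92, interval -2.60 to -1.53). The peak 341 bp to the right had 59 against 141 (-1.19). The promoter peak of the nearest gene with terms, a sequence-specific transcription factor gene 3147 bp away, had 261 against 434 (-0.72, interval -0.96 to -0.51).

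A member on chromosome 7 (142050607 to 142050915) held 40 reads in the knockout and 118 in the control (-1.45, interval -2.11 to -1.03). It lies 1658 bp from the start of a troponin complex gene annotated to skeletal muscle contraction, whose promoter peak had 54 against 85 (-0.61, interval -1.17 to -0.14). On chromosome 10 (20393798 to 20394493), a member whose gene starts inside a gene with terms held 56 against 162 (-1.45). The nearest listed start, 29581 bp away, belongs to a cAMP phosphodiesterase gene. The 3 promoter peaks of that enzyme gene had 344 against 327 (0.07, interval -0.15 to 0.30), so the member was lower and the sum of the enzyme gene's promoters was not. On chromosome 15 (57602215 to 57602621), another member whose gene starts inside a gene with terms held 36 against 117 (-1.57). The nearest listed start, 43090 bp away, belongs to a transcription repressor gene, whose promoter peak had 238 against 266 (-0.15, interval -0.42 to 0.10). Which gene holds the start was not recorded for either member.

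On chromosome 6 (31118323 to 31118727), where the nearest gene with terms is one annotated to silencing by microRNA, 78641 bp away, a member held 43 reads against 135 (-1.54), and the peaks on either side had 27 against 53 and 114 against 276 (-0.86 and -1.24). Members on chromosomes 19 (56657423 to 56657883, 130 against 327) and 13 (56741897 to 56742361, 95 against 238) had ratios of -1.30 and -1.28. The 2 others were on chromosomes 7 (138780036 to 138780542, 47 against 128, -1.35) and 5 (149173965 to 149174324, 38 against 96, -1.23). The chromosome 5 member lies 27833 bp from the start of a gene of leukotriene synthesis, a pathway of inflammation, whose 3 promoter peaks had 199 against 304 (-0.60).

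**Figure D5:**
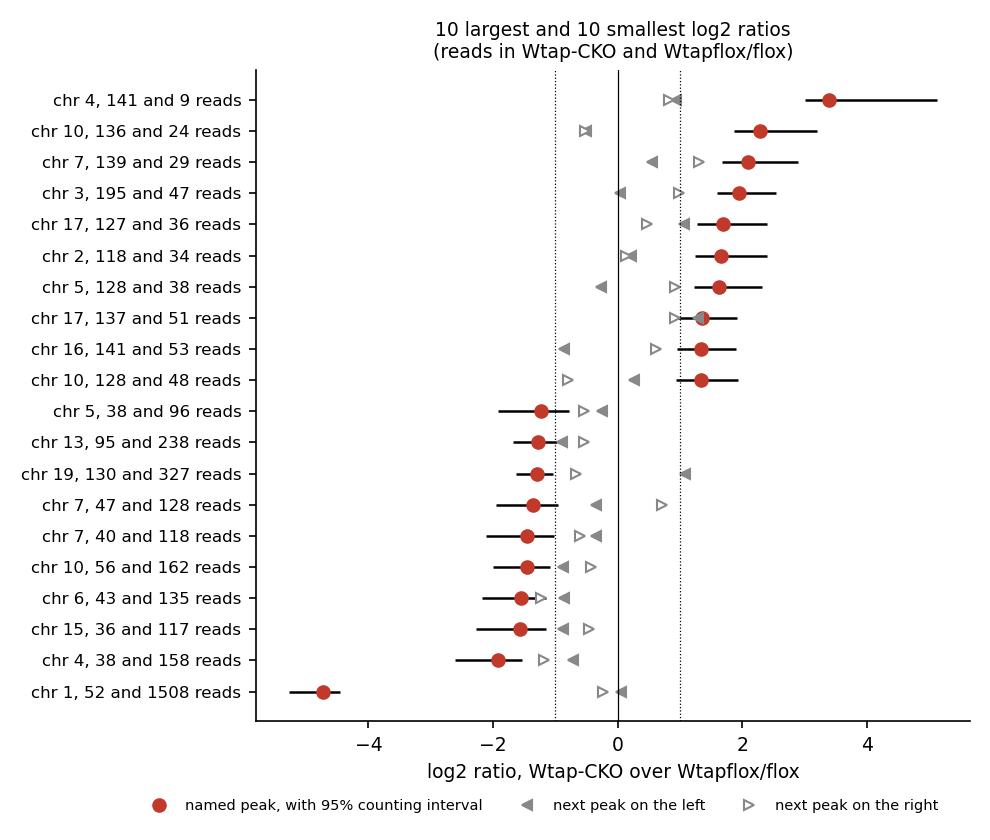
Log2 ratio of knockout over control for the members with the 10 largest and 10 smallest ratios at or above the median signal (red, with the 95% counting interval), and for the next peak on each side (grey triangles); labels give the chromosome and the reads in the knockout and control. Of the 20 peaks beside the largest ratios 15 lie above 0, and of the 20 beside the smallest 3 do. The next peaks were taken at any distance, up to 279904 bp.

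Peaks beside a member past 2-fold lay mostly on the same side of 0. Of the 20 peaks next to the 10 largest ratios, 15 had a ratio above 0 (median 0.51), and of the 20 next to the 10 smallest, 3 did (median -0.55), against 51.1% of all peaks. These 2 counts had no distance limit: the next peak lay up to 279904 bp from the former and up to 65290 bp from the latter. Over all members past the floor, the nearest other peak was within 10000 bp for 67 of the 89 higher ones, and 47 of these 67 (70.1%) were above 0, with a median of 0.28. It was within that distance for 37 of the 47 lower ones, and 9 (24.3%) were above 0, with a median of -0.42. For 2094 members that passed 2-fold in neither direction, 49.7% were above 0, with a median of -0.01. With no signal floor for the neighbour, the nearest peak itself passed 2-fold in the same direction beside 7 of the 67 higher and 3 of the 37 lower members. Beside the 2094 others 140 passed it, counted in either direction, so these counts are not alike. The share of all peaks by this rule was not counted. Neighbouring peaks share the library, and no test of this relation was possible with 1 library per genotype.

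Whether the authors called a peak in a library follows from the same reads, and calls in 1 library alone fell mostly on weak members. The 2271 members called in both libraries had a median of 112 reads in the knockout and 106 in the control. The 619 called in the knockout alone had 47 and 27, and the 758 called in the control alone 29.5 and 43. These were 17% and 20.8% of members, near the 17.6% and 21.2% of all peaks. Of the 89 higher members 70 were called in the knockout alone, 19 in both and 0 in the control alone, and of the 47 lower members 35 in the control alone and 12 in both. Most members past 2-fold were thus listed through the library in which they were higher.

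Of the strong members called in 1 library alone, some differed by under 2-fold and others by more. On chromosome 10 (127125695 to 127125956), a member called in the knockout alone held 187 reads there and 131 in the control (log2 ratio 0.50, interval 0.19 to 0.85). Members on chromosomes 2 (30606614 to 30606957, 187 against 76) and 9 (122676652 to 122677329, 141 against 61) had ratios of 1.25 and 1.15. The nearest gene with terms to the chromosome 9 member, 7116 bp away, is annotated to the maintenance of DNA methylation and imprinting. Called in the control alone were members on chromosomes 11 (120240274 to 120240533, 135 against 219, -0.68), 6 (125073591 to 125074223, 169 against 215, -0.34), 5 (123276336 to 123276649, 149 against 209, -0.47), 19 (5899220 to 5899565, 162 against 199, -0.29) and 10 (81030330 to 81030548, 120 against 190, -0.64). The interval of the chromosome 19 member (-0.60 to 0.01) spanned 0. The chromosome 10 member lay 7337 bp from the start of a ribosylnicotinamide kinase gene, an enzyme of NAD synthesis annotated to negative regulation of myoblast differentiation, whose promoter peak was lower by more, with 362 reads against 686 (-0.91, interval -1.11 to -0.73).

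At the width limit, the 3 widest members (1186 bp and over) held 377, 493 and 408 reads in the knockout against 391, 618 and 323, log2 ratios of -0.05, -0.32 and 0.34. The 3 narrowest peaks outside the limit (1200, 1212 and 1212 bp) held 288, 359 and 1233 against 228, 377 and 1622, ratios of 0.33, -0.07 and -0.39. The 34 wider peaks hold 123970 reads in the knockout and 78972 in the control, and with them the log2 ratio of shares was 0.12. A single peak held 78151 and 44753 of these reads, and without it the ratio was 0.03; the median log2 ratio of the 34 was 0.04.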

How the data were processed

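One ATAC-seq library per genotype was sequenced as paired ends of 150 bp, per the labels' protocols. ChIPseeker, HOMER 4.11, MACS2 2.1.0, BWA 0.7.12 and fastp 0.20.0 are listed with the build GRCm39, per the submitters' processing notes. These sources do not give the Tn5 offset, the peak threshold or whether duplicate and mitochondrial reads were removed. Duplicates left in would make counting intervals too narrow. The authors deposited whole read counts per merged peak. The deposited RPM equals the count plus 1 read times a constant per library, 0.01475 in Wtap-CKO and 0.0171 in Wtapflox/flox, as worked out from the values. The deposited fold enrichment is a ratio to an even spread of reads. The log2 ratio in the authors' deposited table is that of the RPM values.

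Here counts were scaled by reads in all peaks and compared as log2 ratios with 0.5 CPM added. Intervals are exact conditional binomial (Clopper-Pearson, 95%) intervals of the counts with nothing added. They were tested on simulated data whose only scatter was counting error, without duplicates or differences between animals. That test cannot show how well they hold for these libraries. SciPy 1.17.1, NumPy 2.4.6 and pandas 2.3.3 were used. Starts of neighbouring genes are those the table lists. Coordinates are read as counted from 1. No genome of this build was used, so no sequence is shown and GC content was not checked.

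Peaks named were the 10 largest and 10 smallest ratios at or above the median signal, the 10 with the most reads, and the 5 strongest called in each library alone. A list of known noncoding genes could not be matched to IDs. Gene length classes, genes with several peaks and neighbouring peaks were added after values were seen. Members and lists were chosen with earlier results of these data known. Alternatives covered the pseudocount, scaling, floor, fold, width, peaks per gene, strongest members, sex chromosomes and peak calls.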

Additional observations from a re-analysis of the deposited data

How the results depend on the processing

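With 1 library per genotype no replicate could be left out. No paired analysis was possible because each genotype has 1 library. The difference of 0.078 between the median log2 ratios of members and of narrow promoter peaks of genes with terms stayed above 0 in all 9 alternatives run for it, from 0.069 to 0.082. These reuse the same reads and are no separate evidence. Counts past 2-fold moved by over 1.5 times with a pseudocount of 2 CPM (39 higher, 24 lower), with the authors' deposited RPM and log2 ratio (59 and 120), without a floor (200 and 117), with a floor at the median signal (36 and 19), with a 1.5-fold (346 and 230) or 4-fold rule (4 and 2), and with members called in both libraries only (19 and 12). Fewer peaks are tested under the higher floor and with members called in both libraries. Centring on promoter peaks gave 111 higher and 40 lower, so that 73.5% of calls were higher, and moved the members' median to 0.074; the authors' deposited RPM moved it to -0.20. The log2 ratio of the members' share of reads was -0.012 under 800 bp, -0.014 with members called in both libraries, 0.12 with any width, 0.034 with any width but without the peak with the most reads (chosen after seeing the data), and -0.22 by RPM. The cause of the other changes was not tested. Leaving out the chromosome 1 peak, also chosen after seeing the data, left 46 lower members.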

Other observations

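Members at genes of exactly 107 bp, the most frequent gene length among the members, leaned towards Wtap-CKO. This group was picked after its values were seen and has no test. It holds 22 peaks at 20 genes on 13 chromosomes, and the table does not give the kind of RNA. Counts ran from 28 to 358 reads in Wtap-CKO (median 114.5) and from 6 to 261 in Wtapflox/flox (median 92.5). Of the 22 ratios 19 were above 0, with a median log2 ratio of 0.40 and a range of -0.35 to 1.75. The counting interval lay above 0 for 12 and below 0 for 0, and 4 of the 20 over the floor were at least 2-fold higher and 0 lower. Of all peaks 51.1% had a ratio above 0, and of those over the floor 3.5% were higher and 1.45% lower. The log2 ratios in the authors' deposited table were above 0 for 13 of 22, with a median of 0.19. The 3 peaks that overlapped the start had a median of 1.33, and the 19 beside it one of 0.21. Peaks farther than 1 kb from a start whose nearest gene is 107 bp long (370) had a median of 0.06, with 54.3% above 0. Members at the other frequent lengths, 126 bp (11), 132 bp (15) and 191 bp (10), had medians of 0.03, -0.20 and -0.05, with 6, 6 and 4 ratios above 0. Their summed reads were 1958 in Wtap-CKO against 1868, 1290 against 1200 and 2412 against 2525. The difference between these lengths was not tested. Whether reads at such short genes map to 1 place was not tested.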
